A study of Mus musculus with 4 samples.

Results

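The genes described here encode the proteins of the cytosolic ribosome. They were taken by the spelling of the mouse symbol, as protein-coding rows that start with Rpl or Rps and a digit or are *Rpsa* or *Fau*, without pseudogenes, *Rps6k* kinases and genes named as like. This gave 77 of the 20197 genes of the table. One of them, *Rps19bp1*, encodes a protein that binds RPS19 and is not itself a ribosomal protein, so it was kept apart and 76 members remained, 43 of the large (60S) and 33 of the small (40S) subunit. All 76 had a mean of at least 10 normalized reads, so no member was lost to a filter on low values.

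The line was 4T1, from a mammary tumor of a Balb/c mouse, which is used as a model of metastatic breast cancer. The cells had no introduced genetic change named for these samples. They were grown in DMEM with serum, stained with 20 nM MitoSpy Red, a dye that enters mitochondria in proportion to their membrane potential (MMP), and sorted into the brightest 5% (high MMP) and the dimmest 5% (low MMP), so both groups carried the dye and had gone through the sorter. RNA of 100000 cells per sample was sequenced, with 2 samples in each group. The study counts the samples of this comparison as independent experiments or tumors, while the labels name no culture or sort for a sample, and p-values measure the spread between these samples. A line kept in culture is a model without the other cells of a tumor. The question was whether transcripts of the translation machinery differ between cells of high and low mitochondrial activity.

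A ribosome is built from ribosomal RNA and a near-fixed set of proteins, most of them present in a single copy, so the cell makes these proteins in matched amounts. Their messenger RNAs are among the most abundant and the shortest of a growing cell. In vertebrates, they begin with a C and a run of C and T letters, the terminal oligopyrimidine tract, through which mTOR and its partner LARP1 set how much of each is translated, so that supply is controlled on the polysome as well as by RNA level. Tumor cells that divide fast depend on a high supply of ribosomes.

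The libraries held 22591970 to 26395015 reads assigned to genes. Values are normalized reads, scaled by the authors to 20000000 per library, and differences are of log2(value + 1) unless said otherwise. Of the epithelial markers, 5 of 6 were in the table and summed to 36188 to 48361 normalized reads per library. Of the blood cell markers, 1 of 6 was in the table, *Ptprc* with 0 to 2 reads. The 4 endothelial and fibroblast markers summed to 334 to 600 normalized reads, nearly all from *Pdgfra*, and *Pecam1*, *Cdh5* and *Dcn* had at most 12 reads. High MMP replicate 1 stood apart from the other 3 libraries: protein-coding transcripts of the mitochondrial genome took 1.27% of its reads, against 2.14% in high MMP replicate 2 and 2.02% and 2.24% in the low MMP libraries. It also had relatively more reads on short transcripts. Among genes other than the members, the median difference of high MMP replicate 1 minus replicate 2 was 0.11 in the quintile of shortest transcripts and −0.18 in that of the longest.

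No ribosomal protein gene passed the test between high and low MMP cells. The members instead separated the 2 high MMP samples from each other: nearly the whole set was highest in high MMP replicate 1 and lowest in high MMP replicate 2, with both low MMP samples between. They took 5.74% of the reads in high MMP replicate 1 (95% Wilson interval 5.73 to 5.75), 4.65% in high MMP replicate 2 (4.64 to 4.66), 4.94% in low MMP replicate 1 (4.93 to 4.95) and 5.08% in low MMP replicate 2 (5.07 to 5.09). The intervals cover counting error alone. High MMP samples averaged 5.20% ± 0.77 and low MMP samples 5.01% ± 0.10 (SD, n = 2), so the groups overlapped and the 2 high MMP samples lay farther apart than the group means. Without high MMP replicate 1 the share was 0.36 percentage points lower in high than in low MMP, and without high MMP replicate 2 it was 0.73 points higher.

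**Figure D1:**
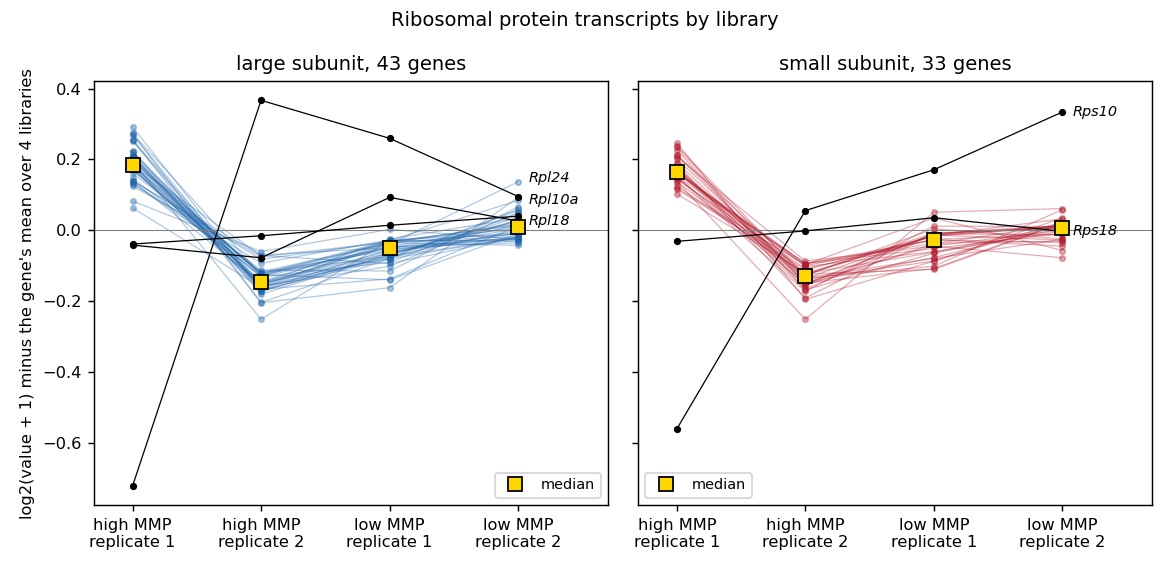
log2(value + 1) of each ribosomal protein gene minus its own mean over the 4 libraries, for the 43 large subunit genes (left) and the 33 small subunit genes (right), with the median of each subunit as a square. Both medians are highest in high MMP replicate 1 and lowest in high MMP replicate 2, and the 5 genes drawn in black, among them *Rps10* and *Rpl24*, take another course.

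In limma, 0 of the 76 members passed an adjusted p of 0.05, as did 0% of all genes. At an unadjusted p under 0.05 the members again counted 0, against 9.96% of all genes. The smallest p of a member was 0.10 (*Rps10*, adjusted p = 0.62 in limma). edgeR on the recovered reads called 0 members and 0% of all genes, edgeR with the replicate number as a block called 0 members against 0.525% of all genes, and DESeq2 called 0 members against 0.584% of all genes. Without high MMP replicate 2, 17 members, or 22.4%, had an unadjusted p under 0.05, against 16.6% of all genes, and 0 an adjusted one. With 2 samples against 2, an exact permutation test of a single value cannot go below a two-sided p of 0.333.

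The median difference of high minus low MMP over the members was 0.04, while that of all genes was −0.04. Single members ran from −0.50 to 0.15, 63 of them above and 13 below 0. This median is the balance of 2 opposite pairs. High minus low MMP had a median of 0.23 over the members in the samples numbered 1 and of −0.14 in those numbered 2. High MMP replicate 1 exceeded replicate 2 by a median of 0.31, or 1.24-fold, and the 2 low MMP samples differed by −0.05. Without high MMP replicate 1 the members' median difference was −0.11, and without high MMP replicate 2 it was 0.19.

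Counts of members by order show how evenly they followed this course. Both high MMP samples were above both low MMP samples in 0 members, against 14.3% of the 12902 genes that averaged 10 or more normalized reads, and below both in 3 members (*Rps10*, *Rpl18* and *Rpl10a*), against 23.7% of genes. In both same-numbered pairs, 0 members were higher in high MMP, against 17.6% of genes, and 3 were lower, against 28.1% of genes. The order with high MMP replicate 1 above, and replicate 2 below, both low MMP samples held in 67 of the 76 members, against 13.6% of genes. This last count was chosen after the values were seen. In 56 members the order was the same through all 4 libraries, with low MMP replicate 2 above low MMP replicate 1. The 9 exceptions to the looser order were *Rps10*, *Rpl24*, *Rpl18*, *Rpl10a*, *Rps18*, *Rpl13a*, *Rpl29*, *Rpl31* and *Rpl35a*. With the trend on transcript length taken out of each library, the order held in 45 members, against 13.2% of 12877 genes, and the median of high MMP replicate 1 minus replicate 2 was 0.22 in place of 0.31. After that correction both high MMP samples were above both low MMP samples in 7 members, against 20.3% of genes, and below both in 1, against 19.1% of genes.

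**Figure D2:**
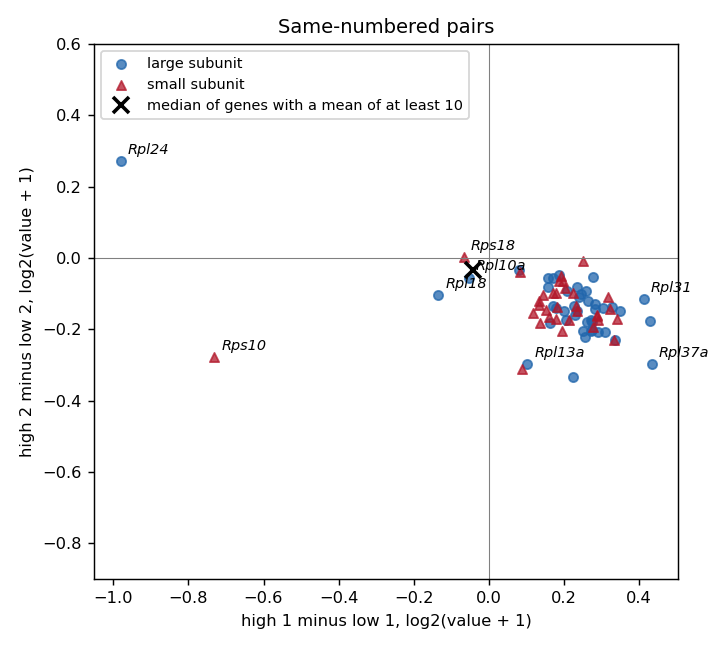
Difference between high and low MMP in log2(value + 1) for the samples numbered 1 (horizontal) and numbered 2 (vertical), 1 point per ribosomal protein gene, with the median of the 12902 genes that average 10 or more normalized reads as a cross. Of the 76 genes, 71 lie to the right of 0 and below it, whereas *Rps10*, *Rpl18* and *Rpl10a* are below 0 in both pairs.

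The large and the small subunit had like differences. High minus low MMP had a median of 0.05 over the 43 large subunit genes and of 0.04 over the 33 small subunit genes. The difference of these medians was 0.01, with 0.02 as its SD between replicates. It was 0.035 without low MMP replicate 2, beyond that SD, and −0.010 without low MMP replicate 1. High MMP replicate 1 exceeded replicate 2 by a median of 0.32 in the large and 0.29 in the small subunit, and the order with the high MMP samples on the outside held in 36 of 43 and 31 of 33. The reads of the large subunit divided by those of the small subunit gave 1.14 and 1.12 in high MMP replicates 1 and 2, and 1.12 and 1.14 in low MMP replicates 1 and 2. The means were 1.13 ± 0.01 in both groups (SD, n = 2), with no separation of the groups. Single members differed between the 2 high MMP samples by 1.24-fold at the median, and the ratio of the subunits stayed between 1.12 and 1.14.

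Parts of the ribosome fixed as lists gave the same picture. Around the exit of the peptide tunnel of the 60S subunit (*Rpl17*, *Rpl19*, *Rpl23a*, *Rpl26*, *Rpl31*, *Rpl35* and *Rpl39*), the median difference was 0.07, from 0.04 to 0.15, and 6 of the 7 genes had the high MMP samples on the outside. For *Rpl5* and *Rpl11*, whose proteins enter the 60S subunit together with the 5S ribosomal RNA and can also bind MDM2, it was 0.06. Over 14 genes of the head of the 40S subunit it was 0.03, and 12 had the high MMP samples on the outside. None of these genes passed the test.

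The level of a gene per kilobase of transcript set the members apart far more than the sort did. The highest was *Rps12*, a protein of the 40S head, at 43774 normalized reads per kilobase, followed by *Rpsa*, the laminin receptor protein of the small subunit, at 35970. Their bars over the 4 libraries, 39690 to 51365 and 33625 to 40119 per kilobase, overlapped. Within each of the 4 libraries *Rps12* was the higher of these genes. Of the 76 members, 73 had a mean of at least 1000 normalized reads, and among these the per-kilobase levels spanned 19.3-fold. The bottom of that span was *Rpl13a* at 2266, whose exons overlap another gene on the same strand, so the span is uncertain. Next came *Rpl29* at 3992 and *Rps20* at 4021, the latter with an annotated length of 3706 bases. At the low end of all 76 members were *Rps10* at 364, *Rps27rt*, an intronless retrogene of *Rps27*, at 274 and *Rpl24* at 35.6 normalized reads per kilobase. Over the 4 libraries *Rps10* and *Rps27rt* overlapped, and *Rpl24*, from 20.1 to 44.5, lay below both. As a description, log2 levels of the 76 members correlated between any 2 libraries with r of 0.995 to 0.999, the libraries sharing the genes' lengths and annotation. The 10 most abundant members held 29.7% of the members' reads.

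**Figure D3:**
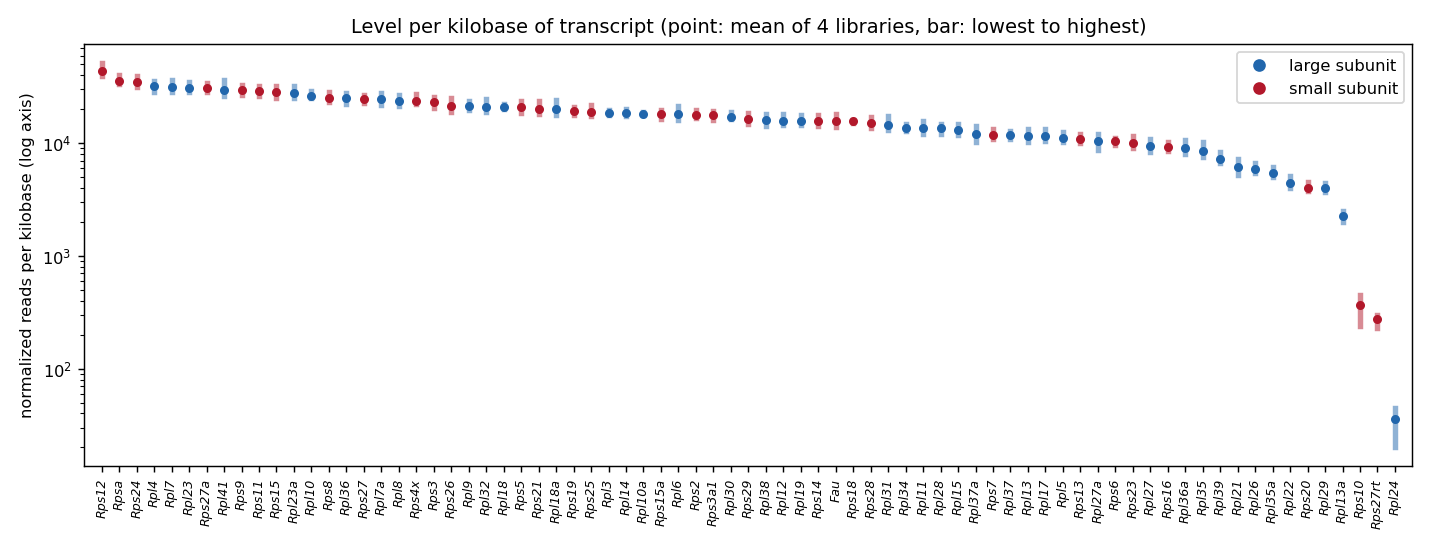
Normalized reads per kilobase of transcript for 75 of the 76 ribosomal protein genes on a log axis, with the mean of the 4 libraries as a point and the lowest to highest library as a bar. Most genes lie close together, and *Rps10*, *Rps27rt* and *Rpl24* lie far below, from 364 down to 35.6.

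How reads were assigned bears on the lowest members. Exons of 4 members overlap another annotated gene on the same strand, namely *Rps10* (RPS10-NUDT3), *Rpl24* (Gm28037), *Rpl13a* (Gm45713) and *Rpl19* (Gm11629), and 17 overlap a gene on the other strand. The 3 members of lowest level with introns, *Rpl24*, *Rps10* and *Rpl13a*, are all among these 4. Their values are therefore uncertain as measures of the whole transcript. Pseudogenes that carry the name of a ribosomal protein gene followed by -ps added 171 rows of the table, for 55 of the members. They took 0.049% to 0.061% of the reads. Pseudogenes under other names were not searched for, so this count is partial. Reads that match a member and its pseudogenes may have been split or dropped. The 72 members without a same-strand overlap had a median difference of 0.05.

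The genes lie on 20 chromosomes, 13 of them on chromosome 7, and 29 hold 57 small nucleolar RNA genes within their bounds, the guides for modification of ribosomal RNA. Hosts and other members had close medians: high MMP replicate 1 exceeded replicate 2 by a median of 0.31 in the hosts and of 0.32 in the others.

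The letters at the annotated start are shown for 8 members: *Rps6* and *Fau* as genes with a pyrimidine tract that followed the common order, *Rps10*, *Rps18*, *Rpl18* and *Rpl10a* as genes that did not, and *Rpl19* and *Rpl22* because the study lists qPCR primers for them. Sequences are from RefSeq on GRCm38.p6, 5′ to 3′ on the transcribed strand, 15 bases before and 15 from the start on, all in the promoter and first exon. Capitals mark the longest run of C and T that touches the 10 bases on either side of the start, as far as it lies within the 30 bases printed.
Rps6: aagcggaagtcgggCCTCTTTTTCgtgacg
Fau: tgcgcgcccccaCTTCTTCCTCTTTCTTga
Rps10: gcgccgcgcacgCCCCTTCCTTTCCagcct
Rps18: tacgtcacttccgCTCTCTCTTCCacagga
Rpl18: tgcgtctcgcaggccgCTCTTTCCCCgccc
Rpl10a: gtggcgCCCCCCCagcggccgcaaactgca
Rpl19: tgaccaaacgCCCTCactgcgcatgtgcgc
Rpl22: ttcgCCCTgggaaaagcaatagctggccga
The windows are chr4:86857353-86857382 (minus strand) for *Rps6*, chr19:6057932-6057961 (plus) for *Fau*, chr17:27635230-27635259 (minus) for *Rps10*, chr17:33955651-33955680 (minus) for *Rps18*, chr7:45718056-45718085 (plus) for *Rpl18*, chr17:28328456-28328485 (plus) for *Rpl10a*, chr11:98026695-98026724 (plus) for *Rpl19* and chr4:152325711-152325740 (plus) for *Rpl22*.

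Of the 76 members, 57 had an entry, with 67 annotated starts. A C at the start base followed by at least 4 C or T letters was found at 14 starts, 20.9%, against 2.51% of 32851 starts of all genes in the promoter table. A run of at least 8 C or T letters that touches the 10 bases on either side of the start was found at 41.8% of the members' starts and 13.7% of all starts. Such a tract was present at the start base of *Rps10* and *Rps18*, which left the common order, as well as of *Rps6* and *Fau*, which kept it. The annotated start can lie some bases off the true one, by up to 2614 bases between RefSeq and the outer gene bound of GENCODE in the 8 genes shown (*Rpl18*), so the absence of a tract at the base itself says only that these letters are not in that window.

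These 2 genes with qPCR primers, *Rpl19* and *Rpl22*, followed the common order. *Rpl19*, at the tunnel exit, measured 13267 and 10741 normalized reads in high MMP replicates 1 and 2 and 11055 and 12173 in low MMP replicates 1 and 2. Both low MMP values lay between the high MMP values. The difference was 0.04 ± 0.15 (SE; limma, adjusted p = 0.98). *Rpl22*, an RNA-binding protein of the 60S surface, measured 10444 and 8182 in high MMP and 8880 and 9069 in low MMP samples, a difference of 0.04 ± 0.15 (SE; limma, adjusted p = 0.98). High MMP replicate 1 exceeded replicate 2 by 1.24-fold in *Rpl19* and 1.28-fold in *Rpl22*.

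The members with the largest positive differences were *Rpl31*, *Rpl41*, *Rps4x*, *Rpl35a* and *Rps12*, from 0.10 to 0.15, and in none of them did the groups separate. *Rpl31* had 11067 and 8396 normalized reads in high MMP and 8311 and 9099 in low MMP samples. It was high in replicate 1 of high MMP alone, with the other 3 libraries close together, and the difference was 0.15 ± 0.17 (SE; limma, adjusted p = 0.86). *Rpl41*, which encodes the smallest protein of the ribosome, had 19088 and 13895 in high MMP and 14180 and 15720 in low MMP samples. The high MMP samples differed by 1.37-fold, and the group difference was 0.13 ± 0.19 (SE; limma, adjusted p = 0.92). *Rps4x*, the X-linked S4 gene, had 26504 and 21606 in high MMP against 22248 and 21743 in low MMP samples, and here high MMP replicate 2 lay close to low MMP replicate 2. *Rps12* had 25271 and 19527 in high MMP and 20289 and 21059 in low MMP samples.

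*Rps10* (ENSMUSG00000052146, chr17:27630418-27636669 on GRCm38) stood at the other end. Its protein sits in the head of the 40S subunit, near the entry of the messenger RNA. It measured 163 and 250.2 normalized reads in high MMP and 271 and 304 in low MMP samples, from 215, 299, 311 and 343 reads. Both high MMP values lay below both low MMP values, by far the most in replicate 1. The difference was −0.50 ± 0.24 (SE; limma, adjusted p = 0.62), and it was −0.20 without high MMP replicate 1 and −0.81 without high MMP replicate 2. edgeR with crossed replicate numbers as a block, a fit chosen after seeing the data, called it (adjusted p = 0.024). *Rpl24* (ENSMUSG00000098274, chr16:55966275-55971435), which helps bridge the subunits, had 18 and 36 reads in the high MMP and 32 and 28 in the low MMP libraries, or 13.6, 30.1, 27.9 and 24.8 normalized reads. A single library, high MMP replicate 1, was low, and without it the difference of −0.35 ± 0.45 (SE; limma, adjusted p = 0.88) became 0.19. Both genes were weakly counted and lowest in high MMP replicate 1, the library where most other members were highest.

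**Figure D4:**
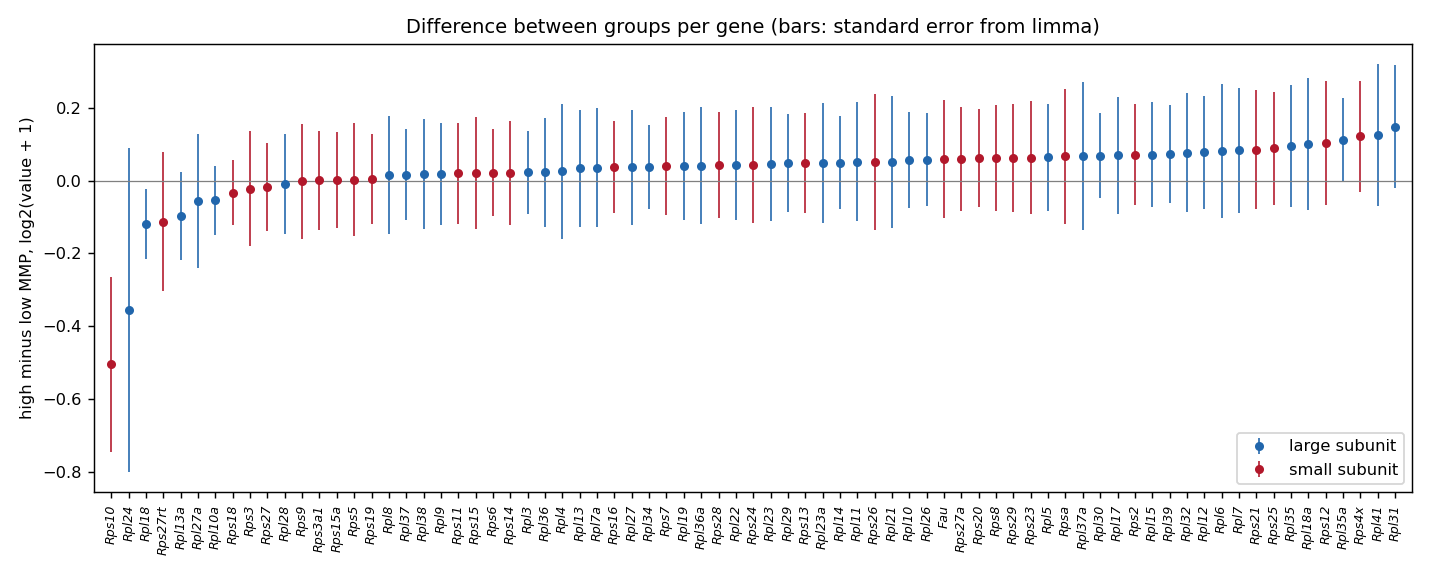
Difference between high and low MMP in log2(value + 1) for 75 of the 76 ribosomal protein genes, ordered by size, with the standard error from limma as bars and the subunits in colour. The bars of 73 genes reach across 0, those of *Rps10* and *Rpl18* do not, and *Rps10* at −0.50 and *Rpl24* at −0.35 lie lowest.

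*Rpl18* (ENSMUSG00000059070, chr7:45715457-45720836) and *Rpl10a* (ENSMUSG00000037805, chr17:28328471-28331033) were abundant, and both high MMP values lay below both low MMP values. *Rpl18* had 11120 and 10847 normalized reads in high MMP and 12207 and 11656 in low MMP samples, and a difference of −0.12 ± 0.10 (SE; limma, adjusted p = 0.79). *Rpl10a*, the protein of the L1 stalk through which spent transfer RNA leaves, had 11278 and 11462 in high MMP and 11700 and 11910 in low MMP samples, a difference of −0.05 ± 0.09 (SE; limma, adjusted p = 0.93). *Rps18*, in the 40S head, had 8305 and 8476 in high MMP and 8698 and 8469 in low MMP samples, and its difference of −0.03 turned to 0.01 with median-of-ratios scaling. In all 3 the high MMP samples agreed within 1.03-fold, unlike in most other members. All 3 overlap a gene on the other strand, as do 17 members in all, of which 12 kept the common order. *Rpl10a* and *Rps18* were named after their values were seen. *Rpl13a*, a protein that can leave the ribosome to silence inflammatory transcripts, had 1168 and 1000.01 in high MMP and 1088 and 1230 in low MMP samples, and *Rps27rt* had 112 and 85.4 against 105 and 106.

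Most members known for roles beside translation had the order of the rest. *Rps6*, the substrate of S6 kinase, had 9869 and 8498 normalized reads in high MMP and 9310 and 8736 in low MMP samples, a difference of 0.02 ± 0.12 (SE; limma, adjusted p = 0.99) that became −0.02 under quantile normalization. *Rps27a* and *Fau* encode S27a joined to ubiquitin and S30 joined to a ubiquitin-like protein. *Rps27a* had 24376 and 20541 in high MMP and 21159 and 21798 in low MMP samples. *Fau* had 9184 and 6984 in high MMP and 7504 and 7877 in low MMP samples, and in both genes the low MMP values lay between. *Rpsa* was the member with most reads, at 70950 and 59465 in high MMP and 61882 and 62151 in low MMP samples. *Rps3*, a protein of the messenger RNA entry with a reported role in DNA repair, had 24612 and 19690 in high MMP and 22367 and 22340 in low MMP samples, and its difference of −0.02 was above 0 with median-of-ratios scaling and in edgeR and DESeq2. *Rpl10* (0.06), *Rpl38* (0.02), known for its part in translation of Hox messages, *Rps19* (0.01), a gene mutated in Diamond-Blackfan anemia, *Rpl5* (0.06) and *Rpl11* (0.05) had small differences on the log2 scale, with adjusted p-values of 0.96 to 0.99 in limma. In each of these 5 genes both low MMP values lay between the high MMP values.

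Genes left out by spelling were set beside the members. The stalk proteins *Rplp0*, *Rplp1* and *Rplp2*, which recruit elongation factors, and *Rack1*, a scaffold on the 40S subunit, had differences of 0.05, 0.09, 0.03 and 0.03, and high MMP replicate 1 exceeded replicate 2 by 1.17-fold to 1.23-fold in these 4. *Rplp1* reached 61614 normalized reads per kilobase, above any member. The paralogs *Rpl7l1*, *Rpl22l1* and *Rps27l*, a p53 target, had differences of 0.06, −0.05 and 0.05, and *Rpl36al*, with 21 to 23 reads per library, had −0.23 ± 0.26 (SE; limma, adjusted p = 0.86). *Rps19bp1* had 421 and 349 normalized reads in high MMP and 394 and 372 in low MMP samples.

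The lists of the wider pathway were elongation factors, initiation factors, ribosome assembly genes, RNA polymerase I and the regulators of the translation of ribosomal proteins, and none of their 88 genes passed the adjusted threshold. The 6 elongation factors came closest to the members, with high MMP replicate 1 above replicate 2 in all 6 by a median of 0.28, and the high MMP samples on the outside in 5. *Eef1a1*, which brings aminoacyl-tRNA to the ribosome, had 220409 and 180276 normalized reads in high MMP and 189318 and 178123 in low MMP samples. Over 28 initiation factors the median of high MMP replicate 1 minus replicate 2 was 0.20 and the order held in 14. Both high MMP samples were above both low MMP samples in 2 initiation factors (7.1%) and below both in 1 (3.6%). For elongation factors both of these counts were 0. Over 32 ribosome assembly genes, which act in the nucleolus and on the way to the cytosol, the median was 0.10 and the order held in 6. Both high MMP samples were below both low MMP samples in 3 assembly genes, or 9.4% of the list beside 23.7% of genes. They were above both in 9, or 28.1% of the list beside 14.3% of genes. Among these, *Rrs1*, needed for 60S assembly, had 3423 and 3198 in high MMP and 2894 and 2851 in low MMP samples, a difference of 0.20 ± 0.08 (SE; limma, adjusted p = 0.54), and *Rpf2*, its partner in bringing in the 5S particle, had 1954 and 1710 against 1486 and 1614. Both were chosen after their values were seen.

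RNA polymerase I genes, which make the ribosomal RNA, had a median of 0.01 between the high MMP samples, and 1 of 9 had the members' order. Both high MMP samples were above both low MMP samples in 3 of the 9, or 33.3% beside 14.3% of genes. They were below both in 1, or 11.1% beside 23.7% of genes. *Taf1b*, a promoter factor of that polymerase, had 433 and 409 in high MMP and 359 and 351 in low MMP samples (difference 0.25 ± 0.09, SE; limma, adjusted p = 0.50). The 13 regulators ran the other way between the replicates, with a median of −0.18 for high MMP replicate 1 minus replicate 2, below 0 in 12, and the members' order in 0. Both high MMP samples were below both low MMP samples in 3 regulators, or 23.1% beside 23.7% of genes, and above both in 0. *Larp1*, which binds the tract at the start of these messages, had 8590 and 10964 in high MMP and 10623 and 9507 in low MMP samples. *Myc*, which drives transcription of ribosome genes, had 5241 and 7404 in high MMP and 8916 and 6247 in low MMP samples, overlapping between groups. *Eif4ebp2*, an inhibitor of cap binding that mTOR switches off, had 3467 and 3524 in high MMP and 4070 and 4081 in low MMP samples, with a difference of −0.22 ± 0.08 (SE; limma, adjusted p = 0.47). *Taf1b* and *Eif4ebp2* were the only 2 of the 88 genes of these lists with an unadjusted p under 0.05 in limma. Among all genes, 9.96% were under it. These 2 genes were named after their values were seen. The regulators had long transcripts (median 3555 bases) and the members short ones (median 704 bases), and the part of transcript length in the contrast of these lists was not tested gene by gene. In bulk samples, more cells with a high level and more RNA per cell cannot be told apart.

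**Figure D5:**
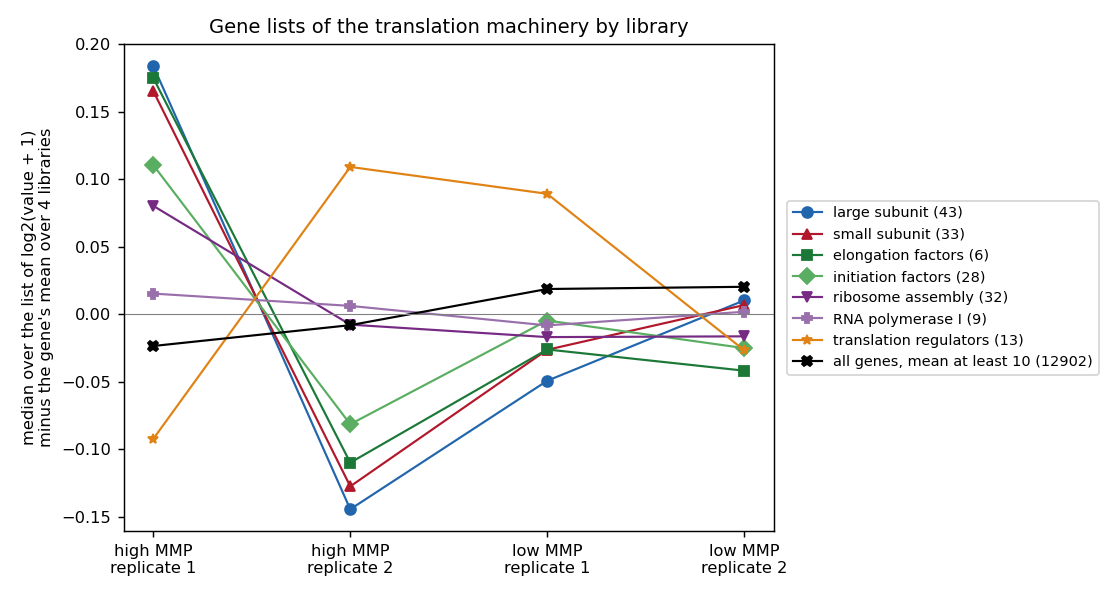
Median over each list of log2(value + 1) minus the gene's own mean over the 4 libraries, with the number of genes in brackets. Both ribosomal subunits and the elongation factors are highest in high MMP replicate 1 and lowest in high MMP replicate 2, and the regulators of translation are lowest in high MMP replicate 1.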

How the data were processed

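The 4 samples were grouped by the sort named in the sample titles. According to the submitters' processing notes and the study's methods, the authors used STAR for alignment to GRCm38 (mm10) and HTSeq for gene counts, scaled every library by its depth and left out genes seen in fewer than 2 samples. Versions, annotation, strand setting and the treatment of multi-mapping reads are not given in the sources used here. The deposited values are thus a library-size normalized signal per gene, and each column sums to 20000000. Within a column they are whole multiples of 1 step, which gave back whole reads for 100% of values (tolerance 0.02 reads), and with them the depth.

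Of 20197 identifiers, 19993 matched GENCODE M21, which gave symbols, positions and transcript lengths (median of the protein-coding transcripts of a gene). log2(value + 1) was tested in limma 3.58.1 (eBayes with trend, R 4.3.3) with the group as the only factor and Benjamini-Hochberg adjustment over all genes, at 0.05. The alternatives were edgeR 4.0.16 and DESeq2 1.42.0 (both on whole reads), pseudocounts of 0.5 and 10, filters, scalings, removal of the trend on transcript length, blocks on the replicate number and leaving out each library. The planned test was for normalized values, which the file holds. The fits were tested on simulated data. A fold on the log2 scale with a pseudocount understates changes of genes with few reads.

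The members, the lists of related genes and the rule for named genes were chosen with earlier results of these data known. Genes were named if the study lists qPCR primers for them, among the 5 largest differences in either direction, known for a role beside the ribosome, highest or lowest per kilobase, or close relatives. Promoter sequences were read from RefSeq. Protein sequences were not used here, and results of some genes are not reported here, so that 1 member is left out of the plots with gene names.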

Additional observations from a re-analysis of the deposited data

How the results depend on the processing

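In limma, 0 members and 0 of all genes were called under the pseudocounts, filter, scalings and variance model tried and when any 1 library was left out, and edgeR without a block called 0 of either. Over all genes DESeq2 called 118 (0 members), and edgeR with the replicate block called 106 (0 members, with 1, *Rps10*, at an unadjusted p under 0.05). Whether same-numbered samples share a sort is not given in the sources used here, and their deviations from the group means had a correlation of −0.42 over 12902 genes. With the numbers crossed, a fit chosen after seeing the data, edgeR called 733 genes, among them 1 member, *Rps10*, which was also the 1 at an unadjusted p under 0.05, and limma called 0. Leaving out 1 library gave 0 to 17 members at an unadjusted p under 0.05.

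Members higher in both pairs numbered 2 with median-of-ratios scaling and 2 with quantile normalization. The share of genes under these scalings was not computed, and it was 17.6% in the values as deposited. With the length trend removed, such members numbered 13 (24.6% of genes). Leaving out a library breaks a pair, so no such count was made. Members not overlapping between groups numbered 8 with the length trend removed (39.4% of genes) and 4 to 75 when 1 library was left out (72 without high MMP replicate 1 beside 76.3% of genes, 75 without high MMP replicate 2 beside 81.3%, 4 without low MMP replicate 1 beside 58.7% and 7 without low MMP replicate 2 beside 59.8%). The median difference ran from −0.11 (without high MMP replicate 1) to 0.19 (without high MMP replicate 2) for the members, from −0.11 to 0.21 for the large subunit and from −0.11 to 0.19 for the small subunit, and large minus small subunit from −0.010 to 0.035 (without low MMP replicate 1 and 2). Other settings kept these medians within the spread between replicates.

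Of 35 named genes, 28 changed sign on leaving out a library. From the value without high MMP replicate 1 to that without high MMP replicate 2, the log2 differences were *Rpl19* (−0.11 to 0.19), *Rpl22* (−0.13 to 0.22), *Rpl31* (−0.051 to 0.35), *Rpl41* (−0.10 to 0.35), *Rps4x* (−0.026 to 0.27), *Rpl35a* (−0.015 to 0.24), *Rps12* (−0.082 to 0.29), *Rps27rt* (−0.31 to 0.083), *Rpl13a* (−0.21 to 0.015), *Rpl5* (−0.087 to 0.22), *Rpl11* (−0.13 to 0.23), *Rps6* (−0.086 to 0.13), *Rps27a* (−0.064 to 0.18), *Fau* (−0.14 to 0.26), *Rpsa* (−0.061 to 0.19), *Rps3* (−0.18 to 0.14), *Rpl10* (−0.053 to 0.17), *Rpl38* (−0.15 to 0.19), *Rps19* (−0.11 to 0.12), *Rpl7l1* (−0.068 to 0.19), *Rpl22l1* (−0.18 to 0.087), *Rplp0* (−0.10 to 0.20), *Rplp1* (−0.027 to 0.20), *Rplp2* (−0.10 to 0.16), *Rack1* (−0.080 to 0.15), *Rps19bp1* (−0.13 to 0.14) and *Rpl29* (−0.088 to 0.18), and *Rpl24* ran from −0.90 without replicate 2 to 0.19 without replicate 1. *Rps6* was −0.021 and *Rps19* −0.013 under quantile normalization. *Rps3* was 0.019 with median-of-ratios scaling, 0.025 in edgeR, 0.029 in edgeR and in DESeq2 with median-of-ratios, and 0.015 in edgeR with either replicate block. *Rps18* was 0.0087, 0.0046, 0.0085 in both and 0.0047 in the same settings. Depth is least for *Rpl24* and *Rpl36al*, with 18 to 36 reads per library, and 2 samples per group limit every comparison.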
